A study of Mus musculus with 16 samples.

Results

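Cathepsins, legumain and cystatin C are represented here by 7 genes, Ctsa, Ctsb, Ctsc, Ctsh, Ctsl, Lgmn and Cst3. They were taken as the array probes whose platform annotation gives one of these symbols alone, which found all 7 genes with 9 of the 15247 probes. After probes of a gene were averaged the arrays held 12761 features, of which 7114 were named genes. The 7 genes were selected on the M833 against WT difference of these same arrays, so that difference is described below and not tested for them. The samples were mouse embryonic fibroblasts, as the series title has it, and were labelled by the cell types M833 and WT. The title also speaks of mutations of Met, the receptor of hepatocyte growth factor. What the name M833 refers to, whether it is a single line or clone, and how WT cells relate to it are not given in the labels. Per cell type there were 8 two-colour arrays of total RNA against a common reference RNA, 4 with the cells in Cy5 and 4 with the cells in Cy3. Slide numbers in the array titles fell into a first and a second series. The second slide number series held M833 replicates 6, 7 and 8 alone, all with the cells in Cy3, and no WT array. What the series stand for is not given in the labels. No label gives the make-up of the reference, or separate cultures behind the arrays, so errors and p-values measured the spread between arrays, which may be technical.

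Cathepsins are proteases of endosomes and lysosomes, where most proteins taken up or delivered for destruction are cut to peptides and amino acids. Most of those measured here are cysteine proteases of the papain family, made as inactive proenzymes and activated by removal of a propeptide at acid pH. Legumain cuts after asparagine and helps to process several cathepsins, and cystatin C is secreted and blocks papain-family enzymes and legumain. Fibroblasts make these enzymes and macrophages make them abundantly, and part of the enzyme can be secreted and degrade matrix.

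All values are log2 ratios of the cells over the reference. That direction is likely but not stated in the labels. A ratio sets a gene against its own level in the reference, so ratios of different genes do not rank them by abundance. The values were almost centred, with array medians between -0.02 and 0.07. Their spread differed between arrays, with a scaled median absolute deviation from 0.30 on M833 replicate 5 to 0.49 on WT replicate 1. Pairs of arrays correlated over all probes with r from 0.591 to 0.973, and the lowest of these values was 0.818 once WT replicate 2 was set aside. That array held 49 values above 8 on the log2 scale, none of them in a probe of the 7 genes. WT replicates 1, 2, 5 and 6 tended to deviate together from WT replicates 3, 4, 7 and 8. This split is known from the data and not from the labels, and each set held arrays of both dye orientations. Deviations from the cell type and dye orientation means were correlated over features with no value beyond 8, the 7 genes left out. Pairs of WT arrays in the same set had r from -0.344 to 0.665, against -0.781 to -0.149 for pairs across sets, so the ranges overlapped. Among 7114 named genes, 27.1% had non-overlapping values in these sets of 4 WT arrays. Of 9 measured fibroblast markers, the fibronectin gene Fn1 lay well above the reference (1.65 in M833 and 2.03 in WT) and Vim too (0.85 in M833 and 1.04 in WT). Dcn lay below it (-2.80 in M833 and -2.56 in WT) and Lum too (-2.57 in M833 and -2.41 in WT). Between M833 and WT, 6 of the 9 fell and none rose, with a median of -0.21, where 15.9% of all features were called lower and 10% higher by limma at an adjusted p of 0.05. The largest of these decreases were -0.87 ± 0.08 (SE) in Col1a2, -0.38 ± 0.09 in Col3a1 and -0.38 ± 0.06 in Fn1. The 7 measured epithelial markers lay on average between -2.42 and -1.68 on M833 arrays and between -2.45 and -1.97 on WT arrays, and did not pass the test between them (adjusted p from 0.062 to 0.979, limma), nor did 3 endothelial markers (adjusted p from 0.181 to 0.477).

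Promoter sequence was set beside the values because the sequence CACGTG is the core of the element through which TFEB and TFE3 act on many lysosomal genes. That the 7 genes differed together between M833 and WT follows from how they were chosen. With the mean of each cell type and dye orientation removed, 12 of their 21 pairs correlated positively, with r from -0.854 to 0.993. Windows from 250 bases before to 50 after an annotated start were available from RefSeq (GRCm38.p6) for 5 of the 7 genes, in 7 windows. Ctsb and Ctsh had no window there. The first 3 below are the windows that held CACGTG, and those of Ctsc and Cst3 held none. Capitals mark CACGTG and GGGCGG, the core of the GC box bound by SP1, on either strand.
Ctsa, chr2:164833523-164833822, plus strand: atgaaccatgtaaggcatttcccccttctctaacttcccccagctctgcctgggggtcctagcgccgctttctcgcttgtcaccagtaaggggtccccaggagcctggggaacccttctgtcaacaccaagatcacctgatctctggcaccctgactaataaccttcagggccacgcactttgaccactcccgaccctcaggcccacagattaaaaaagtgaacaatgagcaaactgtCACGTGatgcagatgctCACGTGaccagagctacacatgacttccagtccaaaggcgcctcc
Lgmn, chr12:102439043-102439342, minus strand: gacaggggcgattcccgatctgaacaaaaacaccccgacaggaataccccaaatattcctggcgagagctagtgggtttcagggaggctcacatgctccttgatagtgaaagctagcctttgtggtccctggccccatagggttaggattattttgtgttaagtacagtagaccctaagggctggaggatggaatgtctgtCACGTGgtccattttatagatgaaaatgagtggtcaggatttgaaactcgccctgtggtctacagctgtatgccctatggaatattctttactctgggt
Ctsl, chr13:64370471-64370770, minus strand: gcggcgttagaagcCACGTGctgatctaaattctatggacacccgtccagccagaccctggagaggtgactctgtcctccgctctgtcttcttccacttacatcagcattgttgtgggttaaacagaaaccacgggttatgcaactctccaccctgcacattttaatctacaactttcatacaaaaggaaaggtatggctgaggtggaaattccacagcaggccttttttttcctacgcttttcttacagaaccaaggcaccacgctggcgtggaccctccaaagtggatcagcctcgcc
Ctsc, chr7:88277835-88278134, plus strand: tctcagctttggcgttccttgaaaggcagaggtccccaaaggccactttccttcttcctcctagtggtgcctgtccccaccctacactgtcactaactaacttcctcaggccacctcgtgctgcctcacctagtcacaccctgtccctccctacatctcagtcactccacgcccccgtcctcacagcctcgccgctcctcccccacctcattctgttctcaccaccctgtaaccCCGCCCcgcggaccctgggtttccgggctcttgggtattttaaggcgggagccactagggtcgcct
Cst3, chr2:148875463-148875762, minus strand: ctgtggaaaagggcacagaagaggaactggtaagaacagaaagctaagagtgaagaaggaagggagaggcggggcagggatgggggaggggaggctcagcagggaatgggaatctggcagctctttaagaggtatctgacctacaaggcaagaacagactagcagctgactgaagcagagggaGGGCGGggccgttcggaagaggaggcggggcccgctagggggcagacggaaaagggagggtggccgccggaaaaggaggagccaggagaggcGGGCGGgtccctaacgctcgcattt

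The Ctsa window held CACGTG at 2 places, starting 12 bases upstream of the annotated start and at base 6 downstream of it, both inside the longer palindrome TCACGTGA. This is a second, downstream start of Ctsa, and the window of the upstream start, not shown, held neither motif. The Lgmn window held it 49 bases upstream of a second, downstream start, and the Ctsl window 236 bases upstream. CACGTG was present in 7.15% of 32851 windows of all genes and TCACGTGA in 0.974%, and 0.0578% held TCACGTGA at 2 or more places. The Cst3 window held GGGCGG at 2 places and the Ctsc window at 1. The upstream Lgmn window, not shown, held it at 3. GGGCGG was present in 35.7% of all windows. No window of the 5 genes held both motifs, and TCACGTGA contains CACGTG. A match of letters is a description, and binding was not measured here. Of the factors themselves, Tfeb differed between M833 and WT by -0.08 ± 0.04 and Tfe3 by -0.05 ± 0.04 on the log2 scale (SE, 8 arrays per cell type). Neither passed the test (adjusted p = 0.187 for Tfeb and 0.295 for Tfe3, limma). Once log ratios were scaled between arrays both passed, in opposite directions, with Tfeb at -0.18 (adjusted p = 0.00263) and Tfe3 at 0.10 (adjusted p = 0.0427).

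All 7 genes were lower in M833 than in WT. In bulk RNA, fewer cells of a type and less RNA per cell cannot be told apart. The log2 difference, M833 minus WT, ran from -0.87 in Ctsb to -0.33 in Ctsa with a median of -0.60, against a median of -0.03 over all features. These differences chose the genes and are given as a description. In a limma fit of cell type plus dye orientation, all 7 lay past the threshold, an adjusted p of 0.05 over all features, where 25.9% of the features did, 15.9% lower and 10% higher. Nothing is read from that count. In 5 genes all 8 M833 arrays lay below all 8 WT arrays, which held for 2.77% of features (1.82% had all 8 M833 arrays above). The exceptions were Ctsc and Ctsl. The mean of the 7 log2 ratios ran from -0.41 to -0.27 over M833 arrays and from 0.08 to 0.39 over WT arrays.

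**Figure D1:**
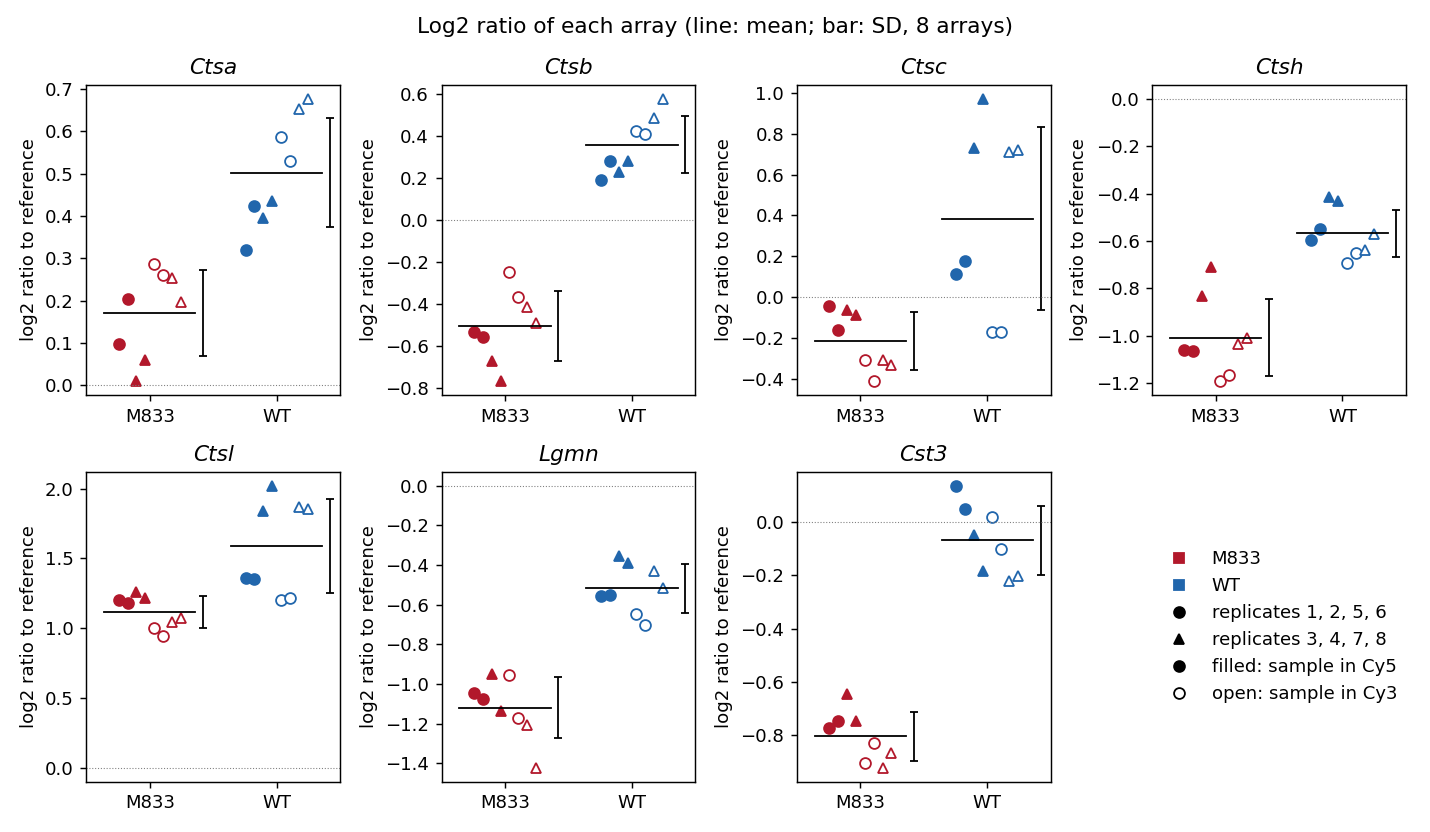
Log2 ratio to the reference on each array, with M833 left of WT in each panel, for the 7 genes. Lines are means and bars are SDs over 8 arrays, filled points have the cells in Cy5, and circles and triangles mark replicates 1, 2, 5, 6 and replicates 3, 4, 7, 8. M833 arrays lie below all WT arrays in Ctsa, Ctsb, Ctsh, Lgmn and Cst3, and overlap them in Ctsc and Ctsl.

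Ctsb encodes cathepsin B, a cysteine protease that cuts both inside proteins and at their C-terminal ends. Its log2 ratio was lowest at -0.77, had a median of -0.52 and was highest at -0.25 over the M833 arrays, against 0.19, 0.35 and 0.58 over the WT arrays. Every M833 array was below the reference and every WT array above it. The difference was -0.87 ± 0.04 (SE, 8 arrays per cell type), an M833 over WT ratio of 0.548. By size of decrease, Ctsb ranked 39 among 7114 named genes, and this would be its rank by size of increase were the ratios the other way round. Ctsb was higher with the cells in Cy3 in both cell types, with means of -0.38 in Cy3 and -0.63 in Cy5 for M833, and of 0.47 in Cy3 and 0.25 in Cy5 for WT. Its M833 minus WT difference was -0.88 with cells in Cy5 and -0.86 with cells in Cy3.

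Cst3 encodes cystatin C, the secreted inhibitor of these enzymes. Its lowest, median and highest log2 ratios were -0.92, -0.80 and -0.65 over the M833 arrays, against -0.22, -0.07 and 0.14 over the WT arrays. The groups were separated by a gap of values that no array took. The difference was -0.73 ± 0.05 (SE), an M833 over WT ratio of 0.601. The inhibitor gene was thus lower on the M833 arrays, as the protease genes were.

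Lgmn, the legumain gene, had lowest, median and highest log2 ratios of -1.42, -1.11 and -0.95 over the M833 arrays, against -0.70, -0.53 and -0.35 over the WT arrays. All arrays of both cell types were below the reference and the groups did not overlap. The difference was -0.60 ± 0.06 (SE). Ctsh encodes cathepsin H, which acts mainly as an aminopeptidase. Its log2 ratios were -1.19, -1.05 and -0.71 at the lowest, median and highest M833 array, against -0.69, -0.58 and -0.42 over the WT arrays. The highest M833 array came close to the lowest WT array without passing it. The difference was -0.44 ± 0.05 (SE), and it became -0.60 with log ratios scaled between arrays.

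Ctsa encodes cathepsin A, a serine carboxypeptidase that also holds lysosomal sialidase and beta-galactosidase in a protective complex. It had lowest, median and highest log2 ratios of 0.01, 0.20 and 0.29 over the M833 arrays, against 0.32, 0.48 and 0.68 over the WT arrays. The groups did not overlap, with a narrow gap between the highest M833 array and the lowest WT array. The difference was -0.33 ± 0.03 (SE), the smallest of the 7, and it ranked 458 among named genes. With cells in Cy3 the mean was 0.25 in M833 and 0.61 in WT, and with cells in Cy5 it was 0.09 in M833 and 0.39 in WT.

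Ctsc encodes cathepsin C, a dipeptidyl peptidase that activates serine proteases of leukocyte granules. Its lowest, median and highest log2 ratios were -0.41, -0.23 and -0.04 over the M833 arrays, against -0.17, 0.44 and 0.97 over the WT arrays. The M833 arrays lay close together and the WT arrays fell into separate levels, with values from -0.17 to 0.18 on WT replicates 1, 2, 5 and 6 and from 0.71 to 0.97 on WT replicates 3, 4, 7 and 8. The difference was -0.60 ± 0.15 (SE) against all WT arrays. Against WT replicates 1, 2, 5 and 6 alone it was -0.20, and against WT replicates 3, 4, 7 and 8 alone it was -0.99. Its 2 probes gave -0.65 and -0.54.

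Ctsl encodes cathepsin L, a strong endopeptidase that fibroblasts secrete as a proenzyme when growth is stimulated. It had lowest, median and highest log2 ratios of 0.94, 1.13 and 1.26 over the M833 arrays, against 1.20, 1.60 and 2.02 over the WT arrays. The same WT arrays were high as for Ctsc, with 1.20 to 1.36 on WT replicates 1, 2, 5 and 6 and 1.84 to 2.02 on WT replicates 3, 4, 7 and 8. The difference was -0.47 ± 0.12 (SE). Against WT replicates 1, 2, 5 and 6 alone it was -0.17, and against the other 4 WT arrays it was -0.78. Both probes gave -0.47. In Ctsc and Ctsl, as in the other 5 genes, the 4 M833 arrays of each dye orientation lay below the 4 WT arrays of the same orientation, which held for 6.49% of features.

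The split within WT was not shared by the other 5 genes to the same extent. WT replicates 1, 2, 5 and 6 minus WT replicates 3, 4, 7 and 8 gave -0.79 in Ctsc and -0.61 in Ctsl, against -0.19 in Lgmn, -0.11 in Ctsh, -0.08 in Ctsa, -0.07 in Ctsb and 0.19 in Cst3. Among 7114 named genes Ctsc ranked 174 and Ctsl 308 by the size of this difference, whose median size was 0.14. The sets were separate in 3 of the 7, Ctsc, Ctsl and Lgmn, where they were separate in 27.1% of named genes. Lgmn ranked only 2712 by size, and Cst3 ran the other way. In M833 the corresponding differences lay between -0.22 in Ctsh and 0.16 in Ctsb, with -0.03 in Ctsc and -0.07 in Ctsl, and the sets were separate in Ctsh alone, 1 of the 7, where they were separate in 4.84% of named genes. These differences are descriptions, since the sets were found in the data.

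**Figure D2:**
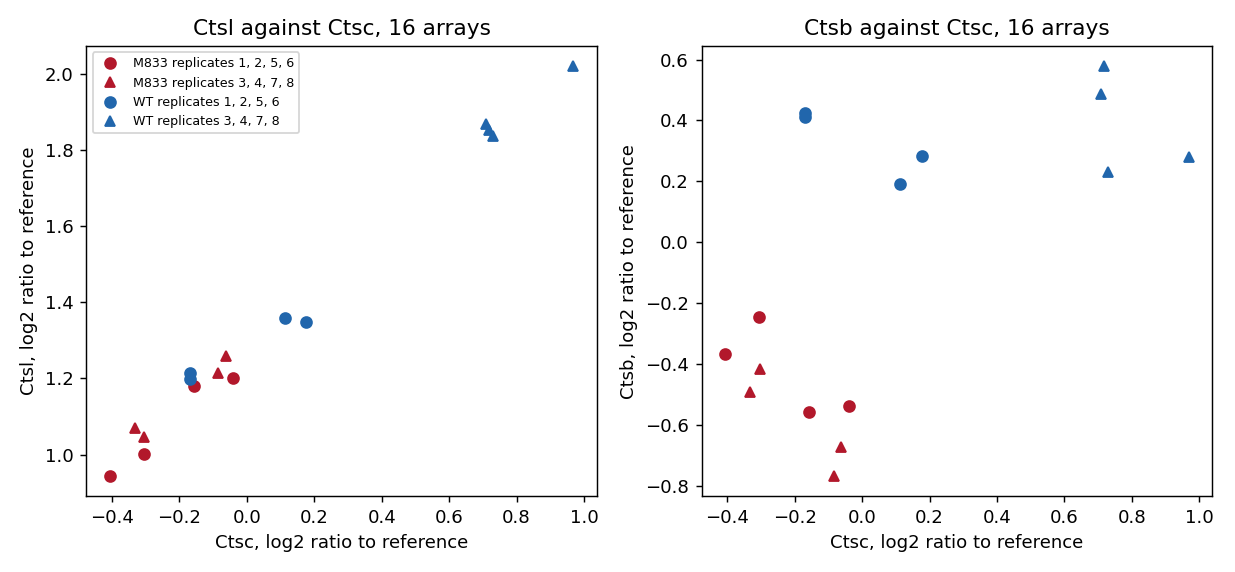
Log2 ratios of Ctsl (left panel) and Ctsb (right panel) against Ctsc, a point per array, in red for M833 and blue for WT, with circles for replicates 1, 2, 5, 6 and triangles for replicates 3, 4, 7, 8. Ctsc and Ctsl are both high on WT replicates 3, 4, 7 and 8, while Ctsb separates all M833 arrays from all WT arrays and does not separate the WT sets.

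Ctsc and Ctsl followed each other across arrays. With the mean of each cell type and dye orientation removed, Ctsl had the highest Pearson correlation with Ctsc of 7113 other named genes, and Ctsc the highest with Ctsl, at r = 0.993 over 16 arrays. The value rests on the WT sets, which all genes of an array share, and 322 named genes reached 0.9 with Ctsc. Over the 8 M833 arrays alone, where the SD was 0.05 in Ctsc and 0.04 in Ctsl, Pearson's r was 0.642 and Spearman's rho 0.333. Probes of the same gene were as alike as probes of different genes, with r = 0.973 between the Ctsc probes and 0.98 between the Ctsl probes, and 0.972 to 0.991 between a Ctsc and a Ctsl probe. The nearest of the 7 to Ctsb by the same measure was Ctsa (r = 0.746), which came 18th among named genes. For Cst3 the nearest of the 7 was Ctsh, with r = -0.277.

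Among other named genes, those most like the mean of the 7 across 16 arrays after removal of dye orientation means were Ctsz, with r = 0.991, Dysf (0.989), Scamp2 (0.986), Itm2c (0.984), Mtch1 (0.983) and Mfge8 (0.983). This likeness is led by the M833 and WT difference, which was -0.71 in Ctsz, encoding cathepsin Z, -0.59 in Dysf, encoding the membrane repair protein dysferlin, and -0.51 in Mfge8, whose secreted product bridges phagocytes to dying cells. With cell type means removed as well, the genes most like the mean were Dcbld2 (0.98), Fndc3b (0.98), Mcam (0.98), Ehd1 (0.979), Pprc1 (0.977) and Kcnk1 (0.976). Here the arrays of the WT sets lead the likeness.

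Comparison with the reference uses the mean of both cell types. In this balanced design it is independent of the M833 and WT difference only where both cell types have equal spread. That did not hold in Ctsc, with an SD of 0.05 in M833 and 0.43 in WT, or in Ctsl, with 0.04 and 0.33. In these genes the WT arrays move both values, so the mean is not free of the choice of the genes. Ctsl and Ctsa lay above the reference, at 1.35 ± 0.06 (SE, 16 arrays; adjusted p = 1.78e-12, limma) and 0.34 ± 0.02 (adjusted p = 1.63e-11). Ctsl ranked 71 from the top among 7114 named genes, and would rank 71 from the bottom were the ratios the other way round. Lgmn at -0.82 ± 0.03 (adjusted p = 3.06e-13), Ctsh at -0.79 ± 0.03 (adjusted p = 8.26e-14) and Cst3 at -0.44 ± 0.02 (adjusted p = 2.76e-11) lay below it. Ctsb was slightly below at -0.07 ± 0.02 (adjusted p = 0.00488, limma), and with cells in Cy3 alone it was 0.047 and did not pass (adjusted p = 0.211). Its call was also lost without the dye term (adjusted p = 0.0791), without the second slide number series (0.0652), with set means (0.179), without WT replicates 1, 2, 5 and 6 (0.0637) and without M833 replicates 3, 4, 7 and 8 (0.165). Ctsc at 0.09 ± 0.07 did not pass the test (adjusted p = 0.287), was -0.11 and passed without WT replicates 3, 4, 7 and 8 (adjusted p = 5.14e-05), and was 0.28 and passed without WT replicates 1, 2, 5 and 6 (adjusted p = 1.16e-07). With array weights Ctsc was 0.17 and passed (adjusted p = 0.0123, limma). Thus 2 of the 7 were above and 4 below, where 44.4% of all features were above and 38.4% below. Over the alternatives 2 to 3 were above and 3 to 5 below. That count rests on the mean and describes neither cell type by itself. Ctsb lay at 0.36 in WT and -0.51 in M833, and Ctsc at 0.38 in WT and -0.21 in M833. Cst3 lay at -0.80 in M833, and at -0.07 in WT, where it did not pass (adjusted p = 0.0643, limma).

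Dye orientation itself moved 4 of the 7 genes past the threshold, against 41.3% of features. Arrays with cells in Cy5 minus arrays with cells in Cy3 gave -0.24 ± 0.04 in Ctsb (adjusted p = 0.000348, limma) and -0.19 ± 0.03 in Ctsa (adjusted p = 0.000442), while Ctsh at 0.16 ± 0.05 (adjusted p = 0.0229) and Cst3 at 0.13 ± 0.05 (adjusted p = 0.0293) moved the other way. Dye orientation changed the M833 and WT difference past the threshold in 0 of the 7 genes. That interaction, in limma, was called in 0 of 12761 features (0%), with 361 at an unadjusted p under 0.05. Among the 7 its unadjusted p ran from 0.385 in Ctsa to 0.933 in Ctsc.

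Of the other cathepsins and lysosomal peptidases on a list of 27 genes, 8 were measured, and 5 fell in M833, none rose and 3 were not called. The list median was -0.19, against -0.03 over all features, and 15.9% of features were called lower. The list was drawn up with earlier results of these arrays known. Ctsd encodes cathepsin D, the main aspartic protease of lysosomes. Its log2 ratio ran from 0.31 to 0.89 with a median of 0.57 over M833 arrays, against 0.94 to 1.77 with a median of 1.39 over WT arrays, without overlap. It fell by 0.76 ± 0.09 (SE, adjusted p = 1.5e-05, limma). Ctsz, encoding the carboxypeptidase cathepsin Z, lay between -0.53 and -0.41 over M833 arrays, against 0.04 to 0.40 over WT arrays, and fell by 0.71 ± 0.05 (adjusted p = 1.4e-07). Dpp7, a dipeptidyl peptidase gene, fell by 0.54 ± 0.07 (adjusted p = 3.1e-05), Prcp, encoding a prolyl carboxypeptidase, by 0.22 ± 0.07 (adjusted p = 0.0212), and Ppt1, whose product is a thioesterase and not a peptidase, by 0.16 ± 0.03 (adjusted p = 0.00125). Not past the test were the tripeptidyl peptidase gene Tpp1 at -0.14 ± 0.06 and the cathepsin genes Cts8 at -0.13 ± 0.05 and Cts7 at -0.10 ± 0.07, known from mouse placenta. The decrease of Prcp was -0.04 and not called with log ratios scaled between arrays (adjusted p = 0.641), and missed the threshold with a random block for the sets of 4 arrays (adjusted p = 0.111), where Ctsd, Ctsz, Dpp7 and Ppt1 passed it. When each set of 4 was averaged first, leaving 2 values against 2, limma called 0 of 12761 features, with 1675 at an unadjusted p under 0.05.

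**Figure D3:**
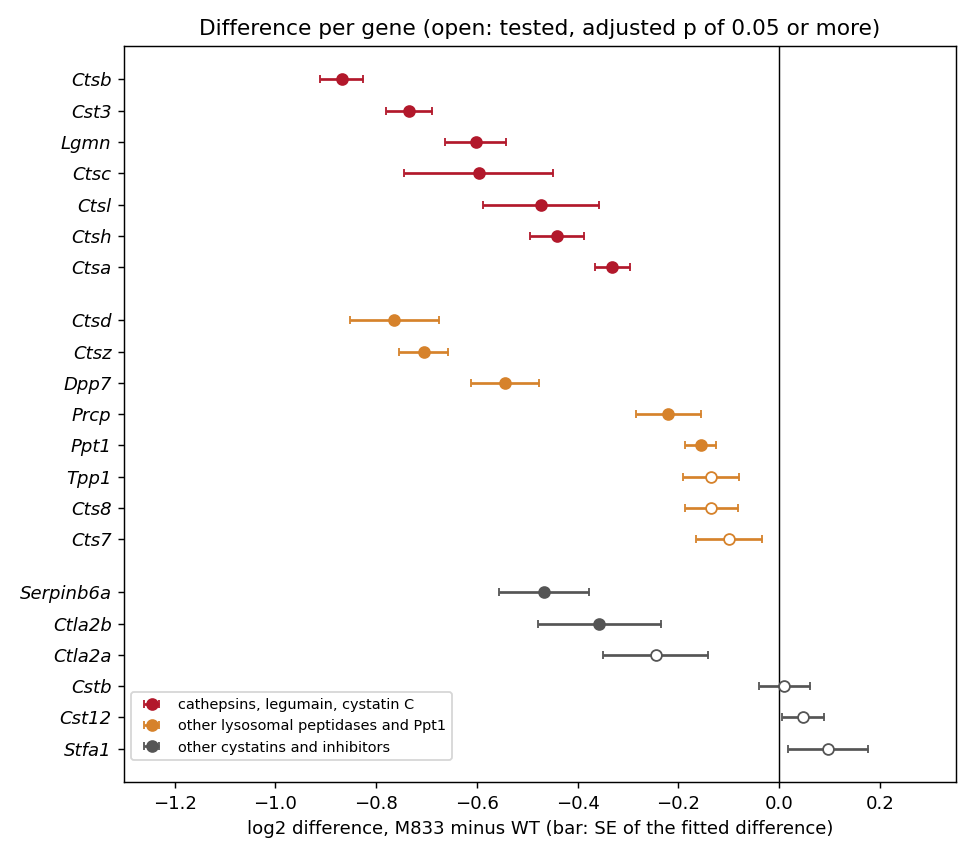
Log2 difference, M833 minus WT, with the SE of the fitted difference, for the 7 genes (red, not tested), the other lysosomal peptidases and Ppt1 (orange) and the other cystatins and cathepsin inhibitors (grey). Open points did not pass the test. Ctsd, Ctsz and Dpp7 and the inhibitor genes Serpinb6a and Ctla2b lie within the range of the red points, and Cstb, Cst12 and Stfa1 lie at or just above 0.

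Other cystatins and inhibitors of cathepsins were set beside Cst3. Of 6 measured genes on a list of 21, 2 fell, none rose and 4 were not called. The list median was -0.12, and 15.9% of all features were called lower. Serpinb6a, a gene for an intracellular serpin, fell by 0.47 ± 0.09 (adjusted p = 0.00125, limma). Ctla2a, whose product resembles the propeptide of cathepsin L, was at -0.25 ± 0.10 (adjusted p = 0.0974), and its relative Ctla2b fell by 0.36 ± 0.12 (adjusted p = 0.0424). The call of Ctla2b was lost with the sets of 4 arrays as a random block (adjusted p = 0.0898), and without any of M833 replicates 1, 3, 4, 5, 7 and 8 or WT replicates 3, 4, 7 and 8, left out singly (adjusted p from 0.0598 to 0.0814). It was -0.04 without the last 4 together. The cystatin genes Cstb, encoding the intracellular inhibitor cystatin B, at 0.01 ± 0.05, Cst12 at 0.05 ± 0.04 and Stfa1 at 0.10 ± 0.08 did not pass. Stfa1 lay far below the reference in both cell types (-4.38 in M833 and -4.48 in WT), and turned to -0.74 and passed with log ratios scaled between arrays (adjusted p = 0.00333).

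Genes of the machinery that delivers these enzymes and acidifies lysosomes were also counted. Of 18 measured genes of sorting to lysosomes on a list of 24, 4 fell, 2 rose and 12 were not called, with a median of -0.04, where 15.9% of all features were called lower and 10% higher. Lrp1, an endocytic receptor gene, fell by 0.32 ± 0.05 (adjusted p = 0.000178, limma), Igf2r, the large mannose 6-phosphate receptor gene, by 0.31 ± 0.06 (adjusted p = 0.0023), Scarb2 by 0.18 ± 0.03 and Gnptab, needed to make the mannose 6-phosphate tag, by 0.10 ± 0.03. The adaptor genes Gga2 at 0.21 ± 0.06 and Gga3 at 0.14 ± 0.04 rose. With the sets of 4 arrays as a random block the calls of Gga2 (adjusted p = 0.142), Gga3 (adjusted p = 0.122) and Gnptab (adjusted p = 0.186) were lost. The small receptor gene M6pr was at -0.11 ± 0.05 and did not pass (adjusted p = 0.154). Of 13 measured subunits of the vacuolar ATPase, the proton pump of lysosomes, on a list of 21, 3 fell, 1 rose and 9 did not pass, with a median of -0.13, against the same 15.9% lower and 10% higher over all features. Atp6v1g1 fell by 0.32 ± 0.09 (adjusted p = 0.0151), Atp6v0e by 0.24 ± 0.06 and Atp6v0d1 by 0.23 ± 0.07, and Atp6v1c1 rose by 0.15 ± 0.04 (adjusted p = 0.00535). With the random block Atp6v0e alone was still called, and Atp6v1g1 (adjusted p = 0.0539), Atp6v0d1 (adjusted p = 0.131) and Atp6v1c1 (adjusted p = 0.082) were not. The count of lower subunits was 10 with WT replicates 3, 4, 7 and 8 as the only WT arrays, and 1 with the other 4 WT arrays only. It was 6 without WT replicate 1 and 5 without WT replicate 5.

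Markers of macrophages and other leukocytes moved with the 7 genes. Of 27 listed markers 9 were measured, 8 fell, none rose and Fcgr3 at -0.20 ± 0.16 did not pass (adjusted p = 0.373, limma), with a median of -0.81, where 15.9% of all features were called lower. Their summed log2 ratio ran from -13.8 to -10.4 over M833 arrays, against -4.56 to -2.69 over WT arrays. The log2 difference was -1.67 ± 0.14 (SE) in Lyz2, the macrophage lysozyme gene, -1.45 ± 0.04 in C1qb and -1.17 ± 0.07 in C1qa, both complement genes. It was -0.86 ± 0.06 in Lcp1, an actin-bundling gene of leukocytes, -0.81 ± 0.06 in the Fc receptor chain gene Fcer1g and -0.68 ± 0.12 in Laptm5. C1qb was between -1.52 and -1.14 over M833 arrays, against 0.03 to 0.25 over WT arrays. Markers such as Csf1r, Adgre1, Itgam and Cd68 were not among the named probes, and the values being ratios, none can be said to be at 0. Within WT the mean of the 9 markers ran from -0.51 to -0.36 on WT replicates 1, 2, 5 and 6 and from -0.49 to -0.30 on WT replicates 3, 4, 7 and 8. These ranges overlapped, as they did with cells in Cy3, whereas with cells in Cy5 the values were -0.36 and -0.40 on WT replicates 1 and 2 and -0.33 and -0.30 on WT replicates 3 and 4. Of the 9 markers 7 were lower on WT replicates 1, 2, 5 and 6. Among them were Laptm5 (a difference of -0.33) and Fcgr1 (-0.23) without overlap and C1qa (-0.25) with overlap. The rest of these ran from -0.16 in Fcgr3 to -0.03 in Fcer1g, against -0.79 in Ctsc and -0.61 in Ctsl. The other 2 markers were higher on those WT replicates, Lyz2 by 0.72 without overlap and Lcp1 by 0.05. Values thus did not overlap in 3 of the 9, where 27.1% of named genes had non-overlapping WT sets. The part of the macrophage markers in the differences of the 7 genes was not tested.

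**Figure D4:**
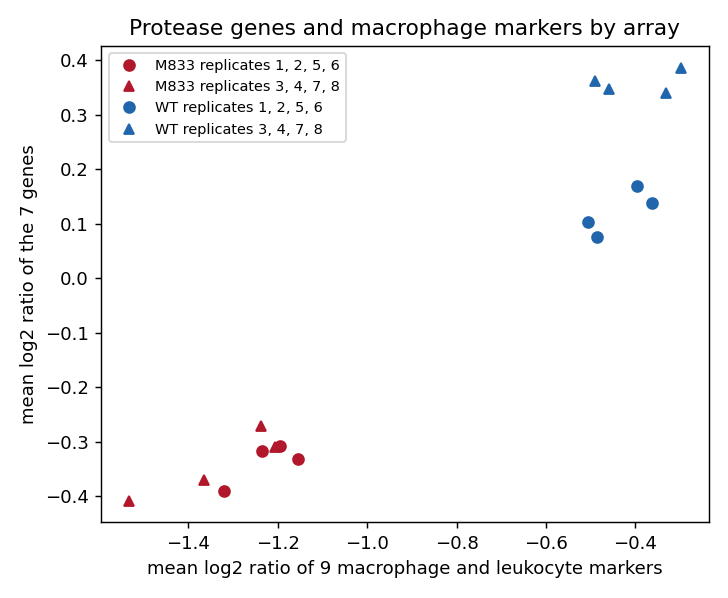
Mean log2 ratio of the 7 genes against the mean log2 ratio of 9 macrophage and leukocyte markers, a point per array, in red for M833 and blue for WT. M833 arrays lie low on both axes, and among WT arrays replicates 3, 4, 7 and 8 (triangles) are higher than replicates 1, 2, 5 and 6 (circles) in the 7 genes and overlap them in the markers over both dye orientations.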

How the data were processed

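Each of the 16 arrays carried total RNA of M833 or WT cells beside a common reference RNA, with dyes swapped on 8 of them. Arrays were grouped by the channel label that names their cells, and replicates were numbered 1 to 8 in series order, as no label numbers them. The authors deposited log2 ratios. The submitters' processing notes name limma; its version and the steps of background correction, normalisation and filtering were not given in the sources available. The size of the values was the ground for taking them as log2. Channel intensities were not used here, so dim probes could not be filtered. The number of arrays is not the only limit on the precision. WT arrays tended to deviate together in sets, and no label gives separate cultures behind the arrays.

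Probes were named through the old platform annotation: 9600 had 1 symbol, 214 several and 5433 none. Probes of a gene were averaged. Features were fitted with limma 3.58.1 in R 4.3.3 (lmFit, eBayes) on cell type plus dye orientation, and p-values were adjusted by Benjamini-Hochberg over 12761 features at a threshold of 0.05. The fit was also run on simulated arrays with independent noise. Those arrays carried no sets and no dye effect, so that run does not measure the error rate of the calls here. There were 0 missing values. The genes and lists were chosen with earlier results of these data known. Named were the 7 genes, all measured genes of the peptidase and inhibitor lists, called genes of the sorting, proton pump and macrophage lists (at most 6 each by size), and the 6 genes most like the mean of the 7 on each scale. Fn1, Vim, Dcn, Lum, Col1a2, Col3a1, Tfeb, Tfe3, M6pr, Fcgr1 and Fcgr3 were named after their values were seen. Alternatives covered centring, scaling, the dye term, probe averaging, array weights, robust moderation, single dye orientations, left-out arrays, extreme values and the sets of 4 arrays.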

Additional observations from a re-analysis of the deposited data

Results flagged for a closer look

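Of 14 groups of 8 arrays examined, that is 7 genes in both cell types with dye orientation means removed, 1 had an array standing apart. Ctsa on M833 replicate 2, at a log2 ratio of 0.20, was the highest M833 array after that adjustment, and its gap to the next array was 0.531 of the whole range of the group, just above Dixon's critical value for 8 arrays. Chance gives about 1 such array in 20 groups.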

How the results depend on the processing

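No paired analysis was possible because the labels give no replicate numbers. The differences of the 7 genes between M833 and WT, on which the genes were chosen, stayed negative under all 32 alternatives. Dropping the dye term, robust moderation, the random block and set means cannot change these fitted differences in this balanced design. Their median was between -0.62 and -0.52 with single arrays left out and -0.39 without WT replicates 3, 4, 7 and 8. The other gene values that moved by more than the spread between arrays were -0.60 in Ctsh and -0.76 in Lgmn with scaling between arrays, -0.33 and -0.55 in Ctsh without either M833 set, and Ctsc, Ctsl and Cst3 (-0.64 and -0.83) without either WT set. The 3301 features called between M833 and WT (2025 lower, 1276 higher) became 1577 lower and 1598 higher with centring. The total was 2000 without the dye term, 835 with cells in Cy5 alone, 1100 with cells in Cy3 alone, 1465 with sets of 4 arrays as a random block, 0 with set means (limma, 2 against 2), 1685 without M833 replicates 1, 2, 5 and 6, 1858 without M833 replicates 3, 4, 7 and 8, and 2878 to 3295 with single arrays left out. It was higher with array weights (3886), each probe by itself (4063 probes), and without WT replicates 1, 2, 5 and 6 (4328) or WT replicates 3, 4, 7 and 8 (4629). With set means 0 members of any list were called. The count of lower peptidase genes, 5, was 3 in either dye orientation alone and 5 or 6 with single arrays left out. The count of lower inhibitor genes, 2, was 1 with centring, without the dye term, with cells in Cy3, with the random block, without the second slide number series and without WT replicates 3, 4, 7 and 8 or either M833 set, 0 with cells in Cy5, and 1 to 3 with single arrays left out. Lower sorting genes, 4, were 1 without the dye term or with cells in Cy5 and 2 with cells in Cy3. Higher sorting genes, 2, were 4 with scaling or without WT replicates 3, 4, 7 and 8, 1 without WT replicates 1, 2, 5 and 6 or either M833 set, and 0 in either dye orientation alone, with the random block or without the second slide number series. Lower pump subunits, 3, were 10 with array weights or without WT replicates 1, 2, 5 and 6, 1 with the random block, without WT replicates 3, 4, 7 and 8 or without M833 replicates 1, 2, 5 and 6, 0 in either dye orientation alone, without the second slide number series or without M833 replicates 3, 4, 7 and 8, and 2 to 6 with single arrays left out. The 1 higher subunit was lost (0) with scaling, without the dye term, with cells in Cy5, with the random block, without WT replicates 3, 4, 7 and 8, without M833 replicates 1, 2, 5 and 6 and with each probe by itself. Signs turned, with a call or in a called gene, in Stfa1 (-0.74), Tfe3 (0.10) and Atp6v0a1 (-0.15) with scaling, in Ctsb against the reference with cells in Cy3 (0.047), in Ap1g1 (-0.12) without WT replicates 1, 2, 5 and 6, and in Ctsc against the reference (-0.11) without WT replicates 3, 4, 7 and 8. A further 47 values, of 15 genes, turned sign without a call on either side (adjusted p of at least 0.214). The causes were not tested. Signal over background is unknown here, so low ratios may rest on dim probes.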

Other observations

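Of the 14 measured genes of the other peptidase and inhibitor lists, 4 had non-overlapping values in the sets of WT arrays (28.6%), near the 27.1% of all named genes. WT replicates 1, 2, 5 and 6 minus WT replicates 3, 4, 7 and 8 gave -0.48 in Ctla2a, -0.22 in Ctsz, 0.44 in Serpinb6a and 0.24 in Prcp, the 4 genes without overlap. Ctla2b at -0.64 and Ctsd at -0.39 differed by more than Ctsz and Prcp, with overlapping values. In M833 the same difference was 0.12 in Ctla2a, -0.03 in Ctsz, -0.06 in Serpinb6a, -0.16 in Prcp, 0.16 in Ctla2b and 0.23 in Ctsd, with overlap in all 6. These 6 were named after their values were seen, and the cause of the WT split was not tested.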
